A study of Homo sapiens with 22 samples.

Results

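The genes described here are 10 genes of HSP90 and the heat-shock response, chosen by symbol from the 60675 genes of the count table: HSP90AA1, HSP90AB1, HSPA1A, HSPA1B, HSPA8, HSPA5, HSPH1, DNAJB1, HSPB1 and HSF1. All 10 were found, and their RNA was followed over the 22 libraries of the study. The cells were HT1080, an established human fibrosarcoma line grown in MEM with fetal bovine serum. Unedited, untreated cells (WT, n = 4) were the control of 5 groups. In 3 of those groups a line was used in which a catalytic histidine of the endogenous enzyme was changed to alanine: KDAC6H216A (n = 4, first catalytic domain of KDAC6), KDAC6H611A (n = 4, second catalytic domain of KDAC6) and KDAC8H143A (n = 4). The other groups are WT cells given an inhibitor for 2 days, either 1 µM Tubastatin A (n = 3), used against KDAC6, or 5 µM PCI-34051 (n = 3), used against KDAC8. The KDAC6H216A line is a pool of 3 cell lines, the KDAC8H143A line also carries an unintended inserted base in an intron, and no vehicle control is labelled. KDAC6 and KDAC8 are also named HDAC6 and HDAC8. The study calls its replicates biological, and neither the labels nor its methods say how they were grown apart, so the p-values below measure the spread between these libraries.

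Heat-shock proteins are chaperones, which help other proteins to fold and keep damaged ones from clumping. HSP70 proteins, delivered their clients by J-domain proteins such as DNAJB1 and reset by exchange factors such as HSPH1, pass some of those clients to HSP90, and small heat-shock proteins such as HSPB1 hold unfolded proteins. HSF1 is the transcription factor that switches many of these genes on when proteins misfold, and it is held inactive in part by chaperones. HSP90 protein is a substrate of KDAC6, so the question asked here is whether RNA for HSP90 and its partners differed where a KDAC was inactivated or inhibited. RNA says nothing of protein level or acetylation.

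Levels are given in CPM, each count per 1000000 counts of its library after scaling for library composition (TMM) over all 22 libraries. Changes are log2 fold changes from edgeR's quasi-likelihood test, each fitted on the 2 groups compared and adjusted over all genes tested by Benjamini-Hochberg, and a gene is called changed at an adjusted p below 0.01. Because each fit was scaled on its own 2 groups, its log2 fold change differed from that of the plotted levels by up to 0.14. Total counts ran from 5248960 to 29862658 per library, and those of the inhibitor groups (24315844 to 29862658) lay above those of WT (5248960 to 8998521) with no overlap. The share of counts from mitochondrial rRNA was 20.8% to 23.9% in WT but at most 0.0259% in every KDAC8H143A and inhibitor library, so this difference between libraries and those 3 conditions cannot be told apart. It was also low in KDAC6H216A replicate 1 (0.195%) and KDAC6H611A replicate 4 (0.173%), against at least 13.1% in each other library of these lines. Mesenchymal markers were abundant (VIM 2083 to 4681 CPM, although S100A4 stayed at or below 3.26 CPM), while the epithelial and blood markers each summed to at most 0.523 CPM and the endothelial markers to at most 3.70 CPM. The mutations cannot be seen in gene counts. HDAC6 was lower in KDAC6H216A than in WT (6.37 ± 0.75 against 14.2 ± 3.3 CPM, SD, n = 4 each, adjusted p = 0.0054 by edgeR), and neither HDAC6 nor HDAC8 was called in any other comparison with WT.

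The start sites of these genes are shown first because HSF1 binds inverted repeats of GAA, the heat-shock element. RefSeq promoter windows on GRCh38.p14, from 250 bases before to 50 after each annotated start, were available for 9 of the 10 genes. The motif with 3 units (TTC, GAA and TTC, or GAA, TTC and GAA, each unit 2 bases of any kind from the next, which together cover both strands) was found in 172 of 35116 promoters (0.490%). It lay in 1 of 2 windows of HSP90AA1, 1 of 3 of HSP90AB1 and 1 of 1 of HSPA8, since a gene has a window for each annotated start. The shorter motif with 2 units (GAA and TTC, or TTC and GAA, 2 bases of any kind apart, contained in the longer one) was found in 13.5% of promoters, and in windows of HSPA1A, HSPA1B, DNAJB1 (2 of its 3) and HSPB1 as well as those 3 genes. The endoplasmic reticulum stress element (CCAAT and CCACG with 9 bases of any kind between them, searched on both strands) was found in 27 promoters (0.0769%), one of them that of HSPA5. The window of HSPH1 held none of these letters. Capitals mark the match, and each sequence is read on the strand of its gene. Positions are counted from the annotated start whose window holds the match.
HSP90AA1, chr14:102087112-102087140, minus strand, match from 88 to 76 bases before the start, no annotated exon: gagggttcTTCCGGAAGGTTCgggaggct
HSP90AB1, chr6:44247770-44247798, plus strand, match from 165 to 153 bases before the start, no annotated exon: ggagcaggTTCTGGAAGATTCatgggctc
HSPA8, chr11:123062171-123062199, minus strand, match from 55 to 43 bases before the start, inside an alternative exon: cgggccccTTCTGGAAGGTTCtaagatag
HSPA1A, chr6:31815429-31815452, plus strand, match from 106 to 99 bases before the start, no annotated exon: aaaccctgGAATATTCccgacctg
HSPA1B, chr6:31827625-31827648, plus strand, match from 105 to 98 bases before the start, no annotated exon: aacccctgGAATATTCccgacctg
DNAJB1, chr19:14518429-14518452, minus strand, match from 47 to 40 bases before the start, no annotated exon: gggctctgGAAGCTTCcgccggac
HSPA5, chr9:125241386-125241414, minus strand, match from 66 to 48 bases before the start, no annotated exon: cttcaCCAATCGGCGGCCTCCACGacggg
These are matches of letters, and no binding was measured.

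In untreated WT cells the 10 genes spanned a wide range of levels. Per kilobase of the canonical transcript, HSPA8, the constitutive cytosolic HSP70, was the highest (1030 ± 78 CPM per kb, SD, n = 4). It was followed by HSP90AB1, the constitutive HSP90 (409 ± 40 CPM per kb), HSP90AA1, the inducible HSP90 (237 ± 14 CPM per kb), and HSPA5, the HSP70 of the endoplasmic reticulum also called BiP (58.2 ± 2.2 CPM per kb). HSF1 (32.3 ± 2.1), DNAJB1 (29.3 ± 2.3) and HSPH1 (26.6 ± 0.56 CPM per kb) came next, and the ranges of HSF1 and DNAJB1, and of DNAJB1 and HSPH1, overlapped. HSPA1B (19.5 ± 4.1) and HSPA1A (14.3 ± 2.0 CPM per kb), the stress-inducible HSP70 genes, overlapped each other, and HSPB1 was the lowest (1.18 ± 0.64 CPM per kb). The 10 genes together took 0.223% to 0.600% of all counts per library. In bulk RNA, fewer cells expressing a gene and less of its RNA per cell cannot be told apart.

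**Figure D1:**
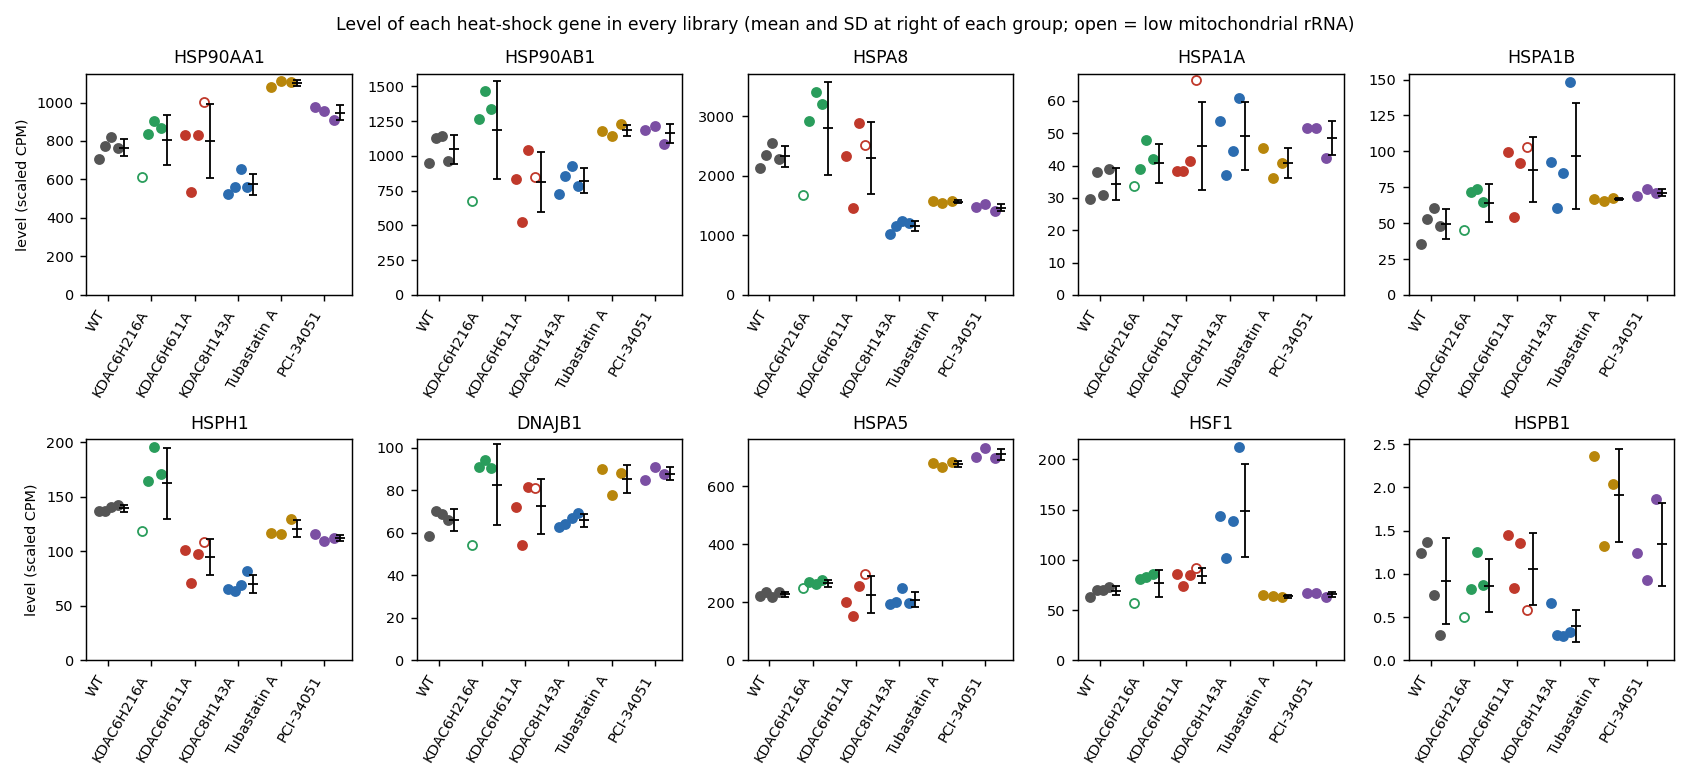
Level of each gene (scaled CPM, linear axis from 0) in every library, with points for libraries, mean and SD beside each group, and open circles for the KDAC6 libraries low in mitochondrial rRNA. HSPA5 sits near 700 CPM in both inhibitor groups against 219 to 236 CPM in WT, and HSPA8 is lower than in every WT library in KDAC8H143A and both inhibitor groups.

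The number of these genes called changed differed widely between conditions, and so did the number over all genes. In KDAC6H216A, 0 of 9 tested genes were called, 0 had an unadjusted p below 0.05 and DESeq2 also called 0, where 0.834% of all genes tested were called (0.214% higher, 0.621% lower). In KDAC6H611A, 2 of 9 were called (HSPA1B higher, HSPH1 lower), against 12.3% of all genes (6.08% higher, 6.24% lower). In KDAC8H143A, 6 of 9 were called (HSF1, HSPA1B and HSPA1A higher, HSPA8, HSPH1 and HSP90AA1 lower), against 58.5% of all genes (31.6% higher, 26.9% lower). Tubastatin A gave 7 of 10 (4 higher, 3 lower), against 57.9% (29.3% higher, 28.6% lower), and PCI-34051 8 of 10 (5 higher, 3 lower), against 51.1% (25.5% higher, 25.6% lower). A count of 6 to 8 called genes is thus close to the background in KDAC8H143A and Tubastatin A, and the description below turns on the size and direction for each gene. The 5 comparisons share the WT libraries. The median log2 fold change over the tested members was 0.19 with Tubastatin A, 0.26 with PCI-34051, -0.074 in KDAC8H143A, and 0.13 and 0.084 in KDAC6H216A and KDAC6H611A, where the medians over all genes lay between -0.0071 and 0.076. The direction of small changes depended on scaling. With scaling by total count alone the median over all genes moved to 0.17, 0.041, 0.36, 0.35 and 0.38 in the order KDAC6H216A, KDAC6H611A, KDAC8H143A, Tubastatin A and PCI-34051, and the members called were 7 higher and 1 lower with Tubastatin A (64.0% of all genes), 7 and 1 with PCI-34051 (61.1%), 3 and 2 in KDAC8H143A (55.7%) and 0 in KDAC6H611A (6.20%). With all 6 groups in 1 fit, which pools the spread of every line, HSPA5 was the only member called with either inhibitor (1.57 and 1.64), against 24.9% and 23.5% of all genes, and 4 members were called in KDAC8H143A, against 54.4%.

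**Figure D2:**
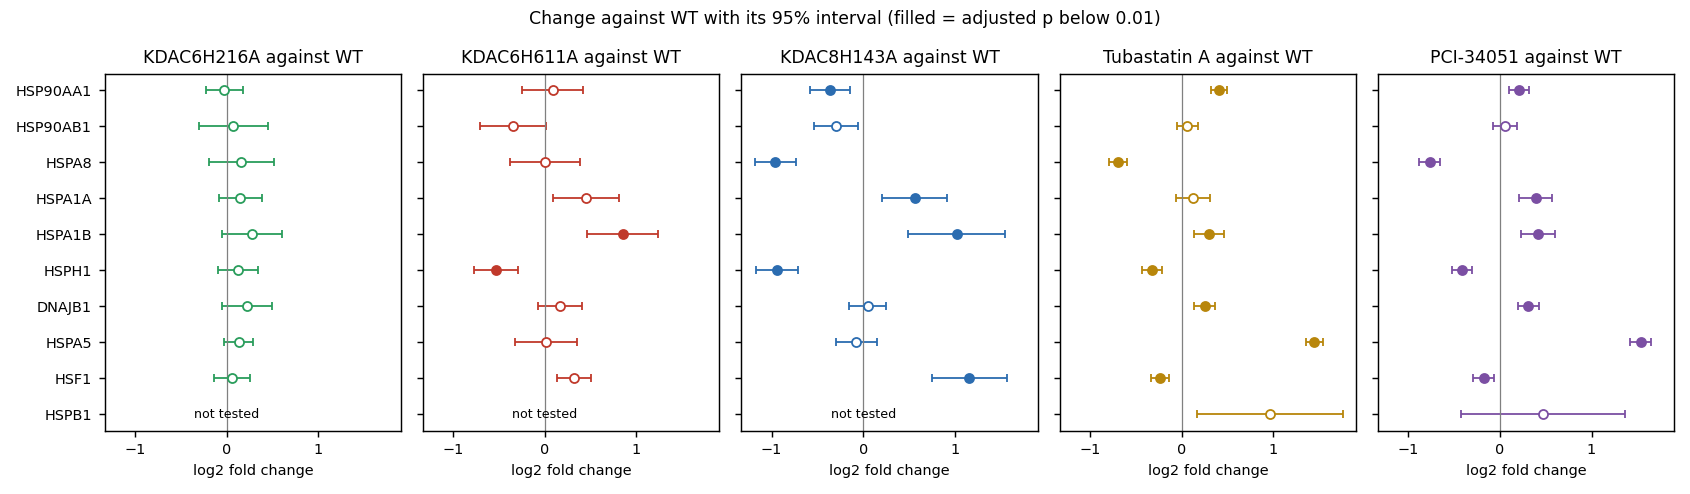
Log2 fold change against WT with its 95% interval for each gene in each comparison, filled where the adjusted p was below 0.01. Both inhibitor panels show HSPA5 far to the right (1.45 and 1.54) and HSPA8 and HSPH1 to the left, and in KDAC6H216A every interval spans 0.

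HSP90AA1, the inducible cytosolic HSP90, read 708, 774, 819 and 762 CPM in WT. It read 1083, 1113 and 1109 CPM with Tubastatin A and 979, 957 and 907 CPM with PCI-34051, above every WT library in both cases. The log2 fold changes were 0.41 (SE 0.042, edgeR adjusted p = 7.2e-08) and 0.21 (SE 0.053, adjusted p = 0.0025). In KDAC8H143A it read 525, 560, 654 and 561 CPM, below every WT library, and the log2 fold change was -0.36 (SE 0.099, adjusted p = 0.0060). The KDAC6 lines spread across the WT range, with 612, 838, 904 and 866 CPM in KDAC6H216A and 833, 535, 828.7 and 1004 CPM in KDAC6H611A, and their log2 fold changes of -0.024 and 0.084 were not called. The KDAC8H143A call was lost without WT replicate 2, 3 or 4 or KDAC8H143A replicate 1 (adjusted p 0.016 to 0.022), and the PCI-34051 call without WT replicate 2 (0.011) or PCI-34051 replicate 1 (0.015). Scaled by total count alone the KDAC8H143A value was -0.075 (edgeR adjusted p = 0.61). After correction for GC content and length it was 0.16 (0.22). Its call was also lost with no filter on low counts (0.035), at least 10 counts in every library (0.016) and all groups in 1 fit (0.019).

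HSP90AB1, the constitutive cytosolic HSP90, was not called in any comparison with WT with all libraries and TMM scaling. It read 949, 1130, 1140 and 965 CPM in WT and 725, 855, 926 and 784 CPM in KDAC8H143A. Those groups did not overlap, yet the log2 fold change of -0.30 (95% interval -0.53 to -0.059) had an adjusted p of 0.029 by edgeR. It passed the threshold without KDAC8H143A replicate 2 (adjusted p = 0.0059) or 3 (0.0074), with DESeq2 (-0.34, 0.0022) and with mitochondrial rRNA removed (-0.34, 0.0099). In KDAC6H611A it ranged from 526 to 1040 CPM, with a log2 fold change of -0.34 (interval -0.70 to 0.016). The intervals were narrower for the inhibitors, -0.047 to 0.17 with Tubastatin A and -0.080 to 0.18 with PCI-34051, but they hold for TMM scaling: scaled by total count alone HSP90AB1 was called higher with both (0.42, adjusted p = 4.3e-06, and 0.44, 2.8e-05), and with no filter on low counts it was called higher with Tubastatin A (0.16, 0.0019).

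HSPA8, the constitutive HSP70 and the most abundant of these RNAs, was lower than in every WT library in 3 conditions. WT read 2134, 2350, 2559 and 2283 CPM, KDAC8H143A 1031, 1163, 1236 and 1204 CPM, Tubastatin A 1570, 1538 and 1584 CPM, and PCI-34051 1477, 1524 and 1404 CPM. The log2 fold changes were -0.96 (SE 0.10, edgeR adjusted p = 1.1e-05), -0.69 (SE 0.046, 1.5e-10) and -0.77 (SE 0.053, 1.4e-09), and these calls held without any 1 library. In KDAC6H216A HSPA8 read 1671, 2916, 3407 and 3216 CPM, and in KDAC6H611A 2341, 1462, 2884 and 2515 CPM, so both lines fell on either side of WT and neither was called.

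HSPA1A and HSPA1B, the stress-inducible HSP70 genes, lie next to each other on chromosome 6 (GENCODE 44, 31815543-31817946 and 31827738-31830254, plus strand). Of the 75-base stretches of the HSPA1A transcript, 73.8% also occurred in that of HSPA1B, and no other pair among 45 pairs of members shared any, so how reads were split between this pair is uncertain and the pair is also given as a sum. The sum was 83.5 ± 12.4 CPM in WT (SD, n = 4), 107 ± 5.1 with Tubastatin A and 120 ± 5.8 with PCI-34051 (n = 3 each), and 105 ± 18, 133 ± 32 and 146 ± 47 in KDAC6H216A, KDAC6H611A and KDAC8H143A (n = 4 each). The sum was higher than in WT by a log2 fold change of 0.24 with Tubastatin A (edgeR adjusted p = 0.0046), 0.41 with PCI-34051 (7.1e-05), 0.85 in KDAC8H143A (0.0026) and 0.70 in KDAC6H611A (0.0053), and for KDAC6H216A it was 0.23 (0.40). The sum was not fitted with libraries left out or with correction for GC content and length. With that correction neither single gene was called in KDAC8H143A (HSPA1A -0.25, HSPA1B 0.24) or in KDAC6H611A (0.26 and 0.67). HSPA1B took 58.6% ± 5.3 of the sum in WT and between 59.6% and 65.5% on average in the other groups.

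For the single genes, HSPA1B read 35.6, 52.9, 60.3 and 48.0 CPM in WT and 92.6, 60.8, 84.8 and 148 CPM in KDAC8H143A, a log2 fold change of 1.02 (SE 0.24, edgeR adjusted p = 0.0025). It read 99.5, 54.1, 92.2 and 103 CPM in KDAC6H611A, where 1 library lay within the WT range, and the log2 fold change was 0.85 (SE 0.18, 0.0046). The inhibitor groups lay just above WT, from 65.7 to 67.2 CPM with Tubastatin A (log2 fold change 0.30, adjusted p = 0.0026) and from 69.02 to 73.5 CPM with PCI-34051 (0.42, 6.5e-04). HSPA1A was called in KDAC8H143A (0.56, adjusted p = 0.0086) and with PCI-34051 (0.39, 9.4e-04), but not in KDAC6H611A (0.45, 0.075) or with Tubastatin A (0.13, 0.21). The KDAC6H611A call of HSPA1B was lost without WT replicate 1, 2 or 4 or KDAC6H611A replicate 1 or 4 (adjusted p 0.016 to 0.020). The KDAC8H143A calls were lost without WT replicate 1 for HSPA1B (0.011), and without any library but KDAC8H143A replicate 2 for HSPA1A (0.013 to 0.037), and the Tubastatin A call of HSPA1B without WT replicate 4 (0.011).

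HSPH1, also called HSP105 or HSP110, is the exchange factor that resets HSP70. Its WT libraries were close together at 136.7, 137.0, 140.5 and 142.9 CPM, and 4 of the 5 conditions lay entirely below them. KDAC8H143A read 65.8, 63.2, 68.7 and 82.1 CPM, KDAC6H611A 101, 71.2, 97.8 and 109 CPM, Tubastatin A 117, 116 and 129 CPM, and PCI-34051 116, 110 and 112 CPM. The log2 fold changes were -0.94 (SE 0.10, edgeR adjusted p = 1.3e-05), -0.53 (SE 0.11, 0.0042), -0.32 (SE 0.051, 1.6e-05) and -0.41 (SE 0.051, 2.2e-06), although scaled by total count alone neither inhibitor gave a call (0.033 with Tubastatin A and -0.022 with PCI-34051), nor did KDAC6H611A (-0.49). KDAC6H216A spread around WT, at 118.3, 164, 196 and 171 CPM, and was not called (0.12). Between the KDAC6 lines, every KDAC6H611A library was below every KDAC6H216A library, and the log2 fold change was -0.68 (SE 0.14, 0.0074). It was the only member called in that comparison, where 9.93% of all genes were called (4.61% higher, 5.31% lower). The KDAC6H611A call against WT was lost without any 1 WT library or KDAC6H611A replicate 1 (adjusted p 0.011 to 0.018), and the call between the lines without any library but KDAC6H216A replicate 1 (0.013 to 0.028). The call between the lines was also lost with total count scaling, removal of mitochondrial rRNA and thinning (0.010 to 0.058).

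DNAJB1, the main inducible HSP40 that hands clients to HSP70, read 58.5, 70.0, 68.6 and 66.0 CPM in WT. It was above every WT library with Tubastatin A (90.0, 77.7 and 87.8 CPM, log2 fold change 0.25, SE 0.057, edgeR adjusted p = 6.9e-04) and with PCI-34051 (84.8, 90.9 and 87.4 CPM, 0.31, SE 0.055, 9.6e-05). Both calls held without any 1 library. In KDAC8H143A it read 62.7, 64.2, 67.0 and 69.2 CPM, inside the WT range, and in KDAC6H216A it read 54.0, 91.1, 94.2 and 90.3 CPM.

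HSPA5 moved most of all 10 genes with either inhibitor. As BiP, it is the chaperone of the endoplasmic reticulum that holds the sensors of unfolded proteins inactive, and it is a marker of the unfolded protein response rather than of the cytosolic heat-shock response. WT libraries read 223, 236, 219 and 234 CPM, against 680, 665 and 683 CPM with Tubastatin A and 701, 732 and 698 CPM with PCI-34051. The log2 fold changes were 1.45 (2.73-fold higher, SE 0.045, edgeR adjusted p = 2.4e-15) and 1.54 (2.90-fold, SE 0.055, 2.9e-13). Both were called in every fit that left out 1 library. No mutant line was called: KDAC8H143A read 193, 199, 248 and 198 CPM, KDAC6H611A 202, 151, 254 and 298 CPM, and KDAC6H216A 251, 269, 264 and 278 CPM, the last of these above every WT library with a log2 fold change of 0.13 (interval -0.024 to 0.29).

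HSF1, the transcription factor itself, read 62.7, 70.3, 70.1 and 73.1 CPM in WT and 143.4, 102, 138 and 212 CPM in KDAC8H143A, with no overlap. The log2 fold change was 1.16 (SE 0.19, edgeR adjusted p = 1.8e-04) and was called without any 1 library. After correction for GC content and length, however, it was -0.070 and not called (0.53 by edgeR). KDAC6H611A, at 86.1, 74.4, 85.4 and 91.8 CPM, was also above every WT library, but its log2 fold change of 0.32 had an adjusted p of 0.019, which passed the threshold only without KDAC6H611A replicate 2 (0.0030) among the fits that left out 1 library. The KDAC6H611A value was also called with DESeq2 (0.31, adjusted p = 0.0056) and with upper quartile scaling (0.37, 0.0048 by edgeR). With correction for GC content and length it was 0.13 and not called (0.37 by edgeR). The inhibitor groups overlapped WT, from 62.5 to 64.9 CPM with Tubastatin A (log2 fold change -0.24, adjusted p = 1.5e-04) and from 63.0 to 67.2 CPM with PCI-34051 (-0.18, 0.0089), values that changed sign to 0.12 and 0.21 with scaling by total count alone. The PCI-34051 call was kept only without WT replicate 1, and without any other library the adjusted p was 0.018 to 0.043.

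HSPB1, the small heat-shock protein HSP27, was hardly measured. Its counts ran from 2 to 74 per library, and 2 counts in WT replicate 4 are under the limit of 3 counts. It did not pass the filter on low counts in any comparison of a mutant line. With Tubastatin A it read 2.36, 1.32 and 2.04 CPM against 1.24, 1.37, 0.758 and 0.290 CPM in WT (log2 fold change 0.96, interval 0.17 to 1.76, adjusted p = 0.031 by edgeR), and with PCI-34051 0.47 (interval -0.43 to 1.37). The Tubastatin A value was called under 3 other settings, total count scaling (1.31, adjusted p = 0.0031), no filter on low counts (1.06, 0.0076) and correction for GC content and length (1.23, 0.0077).

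In KDAC8H143A the changes of these genes ran with the GC content of their transcripts. The genes called higher had the highest GC content of the 9 tested genes (HSF1 63.9%, HSPA1A 59.8%, HSPA1B 58.8%), and HSPH1 (39.6%), HSP90AA1 (41.6%) and HSPA8 (45.3%), called lower, had the lowest. After correction of each library for GC content and transcript length, 2 members were called in place of 6, where 48.7% of all genes were called. HSPA8 was still lower (log2 fold change -0.73, adjusted p = 8.3e-05 by edgeR), and DNAJB1 was now called lower (-0.39, adjusted p = 0.0013). HSF1 changed sign to -0.070, HSPA1A to -0.25 and HSP90AA1 to 0.16, none of them called, while HSPH1 (-0.29) and HSPA1B (0.24) kept their direction without a call. The part of the low mitochondrial rRNA share in these differences was not tested. With Tubastatin A the same correction called 8 of 10 members, adding HSPB1 (1.23, adjusted p = 0.0077), where 56.6% of all genes were called, and with PCI-34051 7, losing HSP90AA1 (0.14, 0.034), where 50.7% were. In KDAC6H611A it called 0 of 9, where 12.2% of all genes were called, with HSPA1B at 0.67 (adjusted p = 0.022) and HSPH1 at -0.44 (0.026), and HSPH1 was not called between the KDAC6 lines (-0.63, 0.028).

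**Figure D3:**
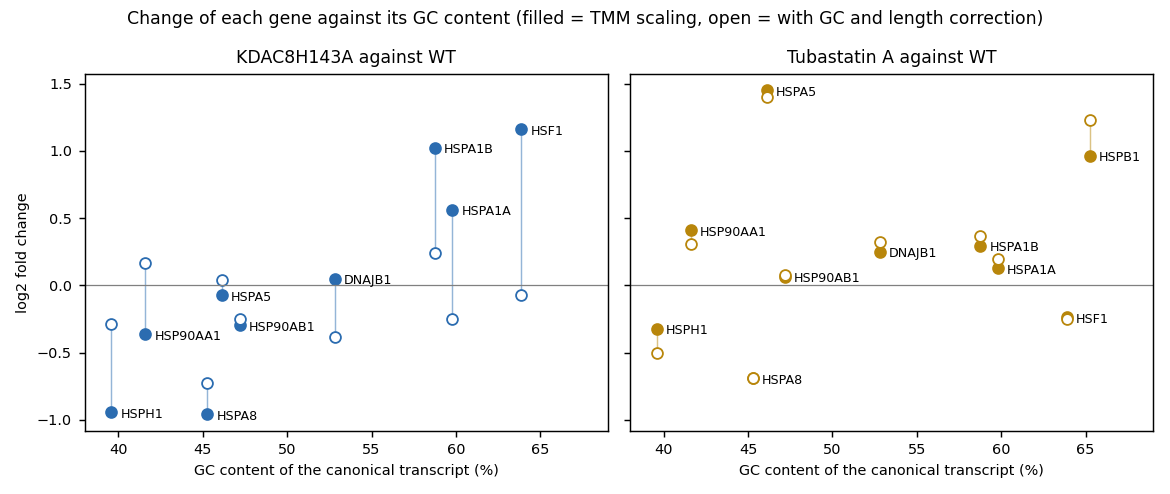
Log2 fold change of each gene against the GC content of its canonical transcript (%), in KDAC8H143A and with Tubastatin A, filled for TMM scaling and open after correction for GC content and length. In KDAC8H143A HSF1 moves from 1.16 to -0.070 and HSPA8 from -0.96 to -0.73, and with Tubastatin A HSPA5 moves from 1.45 to 1.40.

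KDAC6H216A depended on 1 library. Replicate 1, low in mitochondrial rRNA, had the lowest level of the line for each of the 10 genes. Without it, 5 of 9 tested members were called, all higher than WT: DNAJB1 (log2 fold change 0.34, adjusted p = 9.8e-05 by edgeR), HSPA8 (0.31, 2.7e-04), HSP90AB1 (0.24, 0.0040), HSPA1B (0.35, 0.0054) and HSPH1 (0.21, 0.0081). The share of all genes called rose with them, from 0.834% to 26.0%, in a fit of 3 libraries against 4. In KDAC6H611A, without replicate 4, HSPH1 was called lower (-0.60) and HSPA1B was not called (0.76, adjusted p = 0.020).

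The inhibitors were also compared with each other, at different doses (1 µM and 5 µM) but the same time. HSP90AA1 was the only member called, higher with Tubastatin A by a log2 fold change of 0.20 (SE 0.036, edgeR adjusted p = 0.0017), where 5.65% of all genes were called (3.45% higher, 2.20% lower). All 3 Tubastatin A libraries were above all 3 PCI-34051 libraries. The call was lost without any 1 Tubastatin A library (adjusted p 0.011 to 0.026), and with scaling by total count alone (0.012). HSPA1A was lower with Tubastatin A without passing the threshold (-0.26, interval -0.43 to -0.095, adjusted p = 0.037), and passed it without PCI-34051 replicate 3 (-0.34, 0.0068). For HSPA5 the interval of the difference was -0.17 to -0.0076, for HSPA8 0.0066 to 0.15 and for HSPH1 -0.017 to 0.19 on the log2 scale, so for HSPA5 and HSPA8 these intervals lie closer to 0 than the difference of either treatment from WT.

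The wider chaperone network was described with 8 lists of 127 genes in all, of which 112 to 121 were tested per comparison. The 10 members are among the 127, and some genes are on more than 1 list. The list genes named here all passed the threshold with no overlap of libraries, and the SEs of their log2 fold changes lay between 0.042 and 0.32. Endoplasmic reticulum chaperones, a list that includes HSPA5, were mostly called higher under both inhibitors. Of the 21 tested, 16 were higher and 0 lower with Tubastatin A, and 15 were higher and 1 lower with PCI-34051, where 29.3% and 25.5% of all genes were called higher. HSPA13, a microsomal HSP70, rose by a log2 fold change of 1.06 with Tubastatin A, SERPINH1, the collagen chaperone HSP47, by 0.74 and 0.97 with Tubastatin A and PCI-34051, and HSP90B1, the HSP90 of the endoplasmic reticulum, by 0.66 and 0.57. The medians over the list were 0.54 and 0.47. In KDAC8H143A the same list went the other way, with 1 higher and 14 lower and a median of -0.90, where 26.9% of all genes were called lower. PDIA4 (-2.17) and PDIA6 (-1.40), disulfide isomerases, were among those lower, and SERPINH1 (0.79) was the gene that was higher. After the correction for GC content 14 were lower and 0 higher in KDAC8H143A, where 27.2% of all genes were called lower. With Tubastatin A and PCI-34051, 16 and 15 were then higher and 1 and 0 lower, where 27.8% and 24.5% of all genes were higher. With all 6 groups in 1 fit, 10 and 8 were higher and 0 lower with the inhibitors. In that fit 16.2% and 14.6% of all genes were called higher.

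TRiC chaperonin and prefoldin, which fold actin and tubulin, were lower in KDAC8H143A in 13 of 14 genes, where 26.9% of all genes were called lower. PFDN2 alone was higher (0.77), and TCP1 (-1.65) and VBP1 (-1.80) were among the lower. With Tubastatin A and PCI-34051 8 and 9 of 14 were lower and 2 and 1 higher, where 28.6% and 25.6% of all genes were called lower, a balance that turned with scaling by total count alone to 1 and 3 lower and 7 and 5 higher, where 12.1% and 9.62% of all genes were called lower and 51.9% and 51.4% higher. PFDN1, a prefoldin subunit, fell by 0.73 and 0.86 on the log2 scale with Tubastatin A and PCI-34051. After the GC correction 12 of 14 were lower and 0 higher in KDAC8H143A, where 27.2% of all genes were called lower. PFDN2 was thus no longer called higher there. With Tubastatin A and PCI-34051, 6 and 6 were then lower and 1 and 1 higher. In those fits 28.8% and 26.3% of all genes were called lower and 27.8% and 24.5% higher.

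Classical HSF1 target genes were more often called lower than higher in KDAC8H143A, and with the inhibitors they were called in both directions. Of 32 tested in KDAC8H143A, 5 were higher and 18 lower, with a median of -0.56, where 31.6% of all genes were called higher and 26.9% lower. After the GC correction 4 were higher and 16 lower, where 21.5% and 27.2% of all genes were. IER5, a regulator of HSF1, was higher (0.89), and HSPA4L, an HSP110 relative, lower (-1.33). Of 33 tested with each inhibitor, 10 were higher and 9 lower with Tubastatin A and 10 higher and 11 lower with PCI-34051, close to the shares of all genes (29.3% and 28.6%, and 25.5% and 25.6%). With scaling by total count alone they were 20 and 3, and 19 and 4, where 51.9% and 51.4% of all genes were called higher. DNAJB4, a J-domain protein, was higher with both (1.37 and 1.41), and HSPE1, the mitochondrial co-chaperonin HSP10, was lower (-0.54 and -0.76). In KDAC6H611A 4 of 31 were higher and 2 lower, where 6.08% of all genes were called higher and 6.24% lower. SERPINH1 (0.66), DNAJB6 (0.41) and the member HSPA1B were among the first, and HSPE1 (-0.76) and the member HSPH1 among the second. Without KDAC6H611A replicate 4, 2 were higher and 2 lower, where 4.76% and 5.57% of all genes were. In KDAC6H216A 0 of 31 were called. Without its replicate 1, 10 of 32 were higher and 1 lower, and 12 of 21 endoplasmic reticulum chaperones were higher and 0 lower, where 12.2% of all genes were called higher and 13.8% lower.

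The remaining lists are read beside the shares of all genes called higher and lower, 31.6% and 26.9% in KDAC8H143A (21.5% and 27.2% after the GC correction), 29.3% and 28.6% with Tubastatin A, and 25.5% and 25.6% with PCI-34051, and with scaling by total count alone 40.3% and 15.5%, 51.9% and 12.1%, and 51.4% and 9.62%. HSP90 family members and co-chaperones were called higher and lower in 6 and 12 of 25 in KDAC8H143A, 8 and 6 with Tubastatin A, and 6 and 8 with PCI-34051 (8 and 7, 18 and 1, and 16 and 2 with scaling by total count alone), and after the GC correction 1 was higher and 10 lower in KDAC8H143A. CDC37, the co-chaperone that brings kinases to HSP90, was higher in KDAC8H143A (1.08), and SUGT1 was lower (-1.38) and also lower in KDAC6H611A (-0.61). PTGES3, the p23 co-chaperone, was higher with Tubastatin A (0.51), and AHSA1, which stimulates the ATPase of HSP90, lower (-0.47). The cytosolic HSP70 list gave 9 higher and 13 lower of 31 in KDAC8H143A, 8 and 8 of 30 with Tubastatin A, and 8 and 11 of 30 with PCI-34051 (11 and 9, 17 and 1, and 16 and 1 with scaling by total count alone), and after the GC correction 4 were higher and 12 lower in KDAC8H143A. DNAJC6 was higher with Tubastatin A (1.17), and HSPA14 lower with Tubastatin A and PCI-34051 (-0.55 and -0.49).

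Mitochondrial chaperones were called higher and lower in 2 and 8 of 14 in KDAC8H143A, 3 and 6 with Tubastatin A, and 2 and 5 with PCI-34051 (3 and 3, 8 and 1, and 8 and 1 with scaling by total count alone), and after the GC correction 0 were higher and 4 lower in KDAC8H143A, where 21.5% and 27.2% of all genes were. TRAP1, the mitochondrial HSP90, was higher in KDAC8H143A (0.51), but changed sign to -0.18 after the GC correction. Among the heat-shock factors, 3 of 6, HSF1 included, were higher and 2 lower in KDAC8H143A, with HSF4 higher (2.50), and HSF2 (-1.86) and HSBP1, a binding partner that restrains HSF1 (-1.29), lower. After the GC correction 2 were higher and 2 lower, and HSF1 was not called (-0.070). The median over this list moved from 0.69 to -0.11. Of the 10 small heat-shock proteins, 2 to 4 were tested against WT, so their shares say little.

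**Figure D4:**
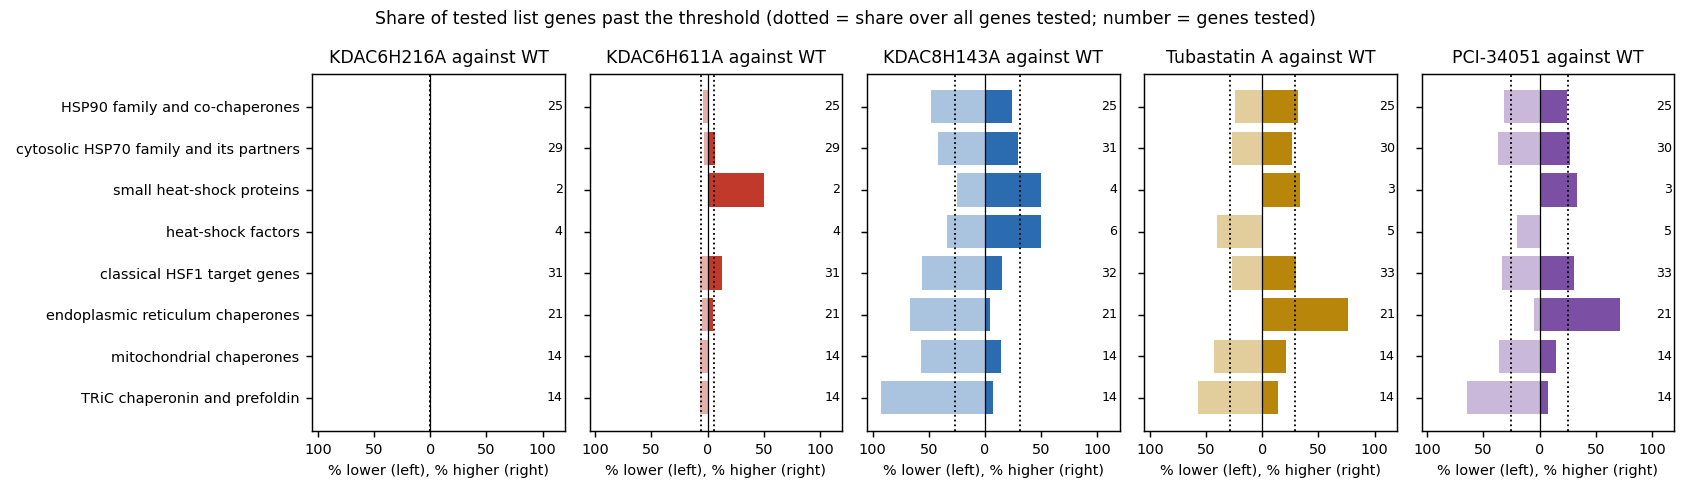
Share of the tested genes of each list called higher (right, solid) or lower (left, pale) against WT, with dotted lines for the share of all genes tested and the number of genes tested at the right. The bar for endoplasmic reticulum chaperones reaches 76.2% higher with Tubastatin A, and that for TRiC and prefoldin lies almost wholly on the lower side in KDAC8H143A (13 of 14 genes).

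The genes whose pattern was most like each member were found by Pearson's r of log2 CPM over the 22 libraries, among 9815 genes with a mean of at least 10 CPM. HSPA5 was most like AHCYL1 (0.99), HSF1 most like PTPN23 (0.98), HSPA8 most like COX6B1 (0.97), HSP90AB1 most like PPP2R5D (0.97), HSP90AA1 most like IDH2 (0.96) and DNAJB1 most like IGBP1 (0.95). Libraries of a group share its condition and its mitochondrial rRNA share, so these values are a description. Among the members, r was highest for HSP90AB1 and DNAJB1 (0.83), followed by HSP90AA1 with DNAJB1 (0.80), HSP90AA1 with HSPA5 (0.78) and HSPA8 with HSPH1 (0.78). It was 0.75 for HSPA1A and HSPA1B, which share reads, 0.75 for HSP90AA1 and HSP90AB1, and -0.18 for HSPA5 and HSPA8.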

How the data were processed

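RNA from HT1080 cells was depleted of rRNA and sequenced as paired ends by the authors, who trimmed reads with Trimmomatic 0.39, aligned them with Bowtie2 2.4.5 to GRCh38 and deposited RSEM 1.3.3 expected counts per gene, not scaled for depth or length. The annotation release is not given in the sources used here. Tool versions are those of the submitters' processing notes. Between 10.6% and 13.5% of all values of a library, zeros included, were not whole, and all were rounded for the fits. Columns were matched to samples by name, and 0 were left out.

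Genes passing filterByExpr were fitted with edgeR 4.0.16 (TMM, glmQLFit, glmQLFTest) in R 4.3.3, 2 groups at a time, with p-values adjusted by Benjamini-Hochberg and called below 0.01, after checks on simulated data. Transcript lengths, GC content and positions came from GENCODE 44. Genes named from the lists were the first 2 higher and 2 lower per list and comparison with at least 10 CPM and no overlap of libraries. Alternatives were DESeq2 1.42.0, other scalings and filters, all groups in 1 fit, GC and length correction (mgcv 1.9.3), removal of mitochondrial rRNA, thinning, summed HSPA1 genes, a replicate block and leaving out each library. Members and lists were chosen with earlier results of these data known. Figures were drawn with matplotlib 3.10.9. A few of the genes most like a member are not reported here.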

Additional observations from a re-analysis of the deposited data

Results flagged for a closer look

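In groups of 4 libraries, 1 library stood apart from the other 3 by Dixon's limit in 5 of 40 sets of values, where chance flags about 1 in 20. In KDAC6H216A, replicate 1 was lowest for DNAJB1 (54.0 CPM, next lowest 90.3) and for HSF1 (57.1 CPM, next lowest 81.3). In KDAC6H611A, replicate 4 was highest for HSPA1A (66.4 CPM, next highest 41.4). These are the KDAC6 libraries low in mitochondrial rRNA, and the part of that share was not tested. In KDAC8H143A, replicate 3 was highest for HSPA5 (248 CPM, next highest 199) and replicate 1 for HSPB1 (0.668 CPM, next highest 0.327), the latter at counts of 8 or fewer.

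Direct tests called a difference between treatments or lines in 2 members: HSP90AA1 was higher with Tubastatin A than with PCI-34051 (log2 fold change 0.20), and HSPH1 was lower in KDAC6H611A than in KDAC6H216A (-0.68). Of the fits that left out 1 library, 3 of 6 kept the call of HSP90AA1 and 1 of 8 that of HSPH1. Both calls were also lost with total count scaling, the replicate block and thinning (edgeR adjusted p 0.011 to 0.058).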

How the results depend on the processing

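Over the members' log2 fold changes, 807 of 919 values under other settings kept their direction and their side of the threshold, 56 lost the call, 19 gained one and 37 changed sign. Over 488 values that left out 1 library the numbers were 420, 41, 10 and 17. The causes were not tested unless named. Main counts of called members were 0, 2, 6, 7, 8, 1 and 1 and of called list genes 0, 9, 88, 69, 69, 5 and 7, in the order KDAC6H216A, KDAC6H611A, KDAC8H143A, Tubastatin A and PCI-34051 against WT, Tubastatin A against PCI-34051, and KDAC6H611A against KDAC6H216A. The shares of all genes called were 0.834%, 12.3%, 58.5%, 57.9%, 51.1%, 5.65% and 9.93% in that order.

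Leaving out 1 library gave 0 to 5, 0 to 3, 4 to 7, 6 to 7, 6 to 8, 0 to 2 and 0 to 1 called members and 0 to 35, 3 to 16, 78 to 94, 65 to 73, 58 to 69, 0 to 8 and 2 to 15 called list genes in the same order. Over all genes those fits called 28 to 3813, 1122 to 2908, 8186 to 10520, 8159 to 8902 and 7043 to 7686 against WT. In the direct comparisons they called 407 to 1161 and 772 to 3041. Between 14638 and 18974 genes were tested per fit. The 35 came without KDAC6H216A replicate 1, where 26.0% of all genes were called. Sign changes were met for HSP90AA1 (-0.056 to 0.045) and HSP90AB1 (-0.015 to 0.24) in KDAC6H216A, for HSPA8 (-0.11 to 0.14), HSPA5 (-0.15 to 0.13) and HSP90AA1 (-0.040 to 0.21) in KDAC6H611A, for DNAJB1 in KDAC8H143A (-0.026 to 0.074), for DNAJB1 (-0.099 to 0.0051) and HSP90AB1 (-0.024 to 0.041) between the inhibitors, and for HSP90AA1 between the KDAC6 lines (-0.037 to 0.20).

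In KDAC6H216A, called list genes numbered 2 with DESeq2, 6 with total count scaling, 1 at an adjusted p of 0.05, 1 with all groups in 1 fit and 35 without the libraries low in mitochondrial rRNA, where 5 members were called. Over all genes, 367, 443 and 351 of 14500, 215 of 18480 and 3813 of 14638 were called in that order. HSP90AA1 (-0.024) changed sign to 0.14 with total count scaling, 0.013 with no filter, 0.072 with all groups, 0.037 with GC correction, 0.028 with GC correction and block and 0.045 without the low libraries.

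In KDAC6H611A, called members numbered 0 with total count scaling, with GC correction and with GC correction and block, and 1 with all groups, with thinning and without the low libraries. Called list genes numbered 1 with total count scaling, 18 at an adjusted p of 0.05 and 3 with GC correction and block. Over all genes, 913 of 14725 were called with total count scaling, 3383 at 0.05, 1793 with GC correction and 1299 with GC correction and block. With all groups, with thinning and without the low libraries 2095 of 18480, 1563 of 13554 and 1546 of 14968 were called. HSPA8 (-3.0e-04) became 0.045 with upper quartile scaling, 0.047 with total count, 0.016 with at least 10 counts in every library and 0.0083 with thinning. HSPA5 (0.0072) became -0.018 with no filter, -0.011 with all groups, -0.0028 with GC correction, -0.026 with the block, -0.043 with GC correction and block and -0.15 without the low libraries, where HSP90AA1 was -0.040.

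In KDAC8H143A, 2 members were called with GC correction, alone or with the block, where 7834 and 7817 of 16101 genes were called. Sign changes with GC correction alone and with the block were 0.16 and 0.15 for HSP90AA1, -0.25 and -0.26 for HSPA1A, -0.070 and -0.076 for HSF1, 0.042 and 0.036 for HSPA5, -0.39 and -0.38 for DNAJB1, -0.17 and -0.17 for DNAJB2, and -0.18 and -0.18 for TRAP1. HSPA5 was 0.22 with total count scaling, and DNAJB1 was -0.0024 with all groups in 1 fit.

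With all groups in 1 fit, 1 member and 19 list genes were called with Tubastatin A and 1 and 23 with PCI-34051. In that fit 24.9% and 23.5% of all genes were called. With total count scaling, after which the median over all genes was -0.043 between the inhibitors and -0.12 between the KDAC6 lines, HSPH1 was 0.033 and HSF1 0.12 with Tubastatin A, and HSF1 0.21 with PCI-34051.

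Between the inhibitors, called members numbered 0 with total count scaling, all groups, the block, the block with GC correction and thinning, and 2 with no filter and at an adjusted p of 0.05. Called list genes numbered 9 with DESeq2, 2 with total count, 15 with no filter, 20 at an adjusted p of 0.05, 0 with all groups, 3 with the block, 2 with the block and GC correction and 0 with thinning. Over all genes, 1410, 1033, 1884, 2463, 7, 766, 604 and 384 were called in that order. Tested were 18409 genes, but 33083 with no filter, 18480 with all groups and 13750 with thinning. HSP90AB1 was -0.0077 with upper quartile and -0.023 with total count scaling. Between the KDAC6 lines, called members numbered 0 with total count, removal of mitochondrial rRNA, GC correction, the block, both and thinning. Called list genes numbered 13 with DESeq2, 1 with total count, 15 at an adjusted p of 0.05, 20 with all groups, 4 with the block, 3 with the block and GC correction and 11 without the low libraries. Over all genes, 2492, 781, 3109, 3382, 930, 842 and 2092 were called in that order. With removal of mitochondrial rRNA, GC correction and thinning 1492, 1479 and 1098 were called. Between 13497 and 18480 genes were tested. DNAJB1 was 0.023 with upper quartile scaling, HSP90AA1 -0.0089 with all groups and -0.11 without the low libraries, HSPA1A -0.015 and -0.028 and HSF1 -0.061 and -0.053 with GC correction alone and with the block.

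The groups share replicate numbers, but in no comparison did every same-numbered pair deviate together with r above 0.1. The lowest r of a pair was 0.012, -0.20, -0.025, -0.051, -0.10, -0.068 and -0.38 in the order above, and of 8, 8, 8, 7, 7, 6 and 8 libraries 4, 3, 4, 2, 2, 0 and 2 correlated best with their own number. Pairs were uneven, and the highest r was 0.36, 0.25, 0.11, 0.035, 0.032, -0.0028 and 0.60 in the same order. With the replicate block alone, called members numbered 0, 2, 6, 7, 6, 0 and 0 and called list genes 0, 8, 87, 62, 62, 3 and 4. Over all genes, 66, 1559, 9194, 7711, 7134, 766 and 930 were called in the same order. Under the block HSP90AA1 (adjusted p = 0.017 by edgeR) and HSF1 (0.053) lost their call with PCI-34051. Depth limits HSPB1 first, at 2 to 74 counts per library.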
